A study of Mus musculus with 9 samples.

Results

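Kinesins and cytoplasmic dynein are the motors that walk along microtubules. The genes described here were the 64 of 47729 genes in the count files whose symbols name a kinesin of the numbered Kif families, a kinesin light chain, a subunit of cytoplasmic dynein or a dynactin subunit. They were taken by the start of their symbols (Kif or Klc followed by a digit, Dync, Dynl, and Dctn followed by a digit), and symbols ending in os or -ps were left out. By what each gene is known to do they fell into 15 axonal transport kinesins, 4 kinesin light chains, 12 mitotic kinesins, 10 kinesins of the cilium or with other roles, 5 core subunits of dynein 1, 2 subunits of dynein 2, 9 dynein light chains, 6 dynactin subunits and 1 pseudogene, Dynlt1-ps1, whose symbol carries a number after -ps and so was kept. Of the 64 genes, 63 passed the filter on low counts and were tested among 17988 genes. Kif2b was at 0 counts in every library.

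Most kinesins carry cargo towards the plus ends of microtubules, which point to the axon tip, while dynein, together with dynactin, carries cargo back towards the cell body. DA neurons have very long, branched axons and depend on this traffic for mitochondria, synaptic vesicle precursors and signalling endosomes. A separate group of kinesins builds and moves the mitotic spindle and completes cell division, and a neuron that has left the cell cycle has no spindle.

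RNA was sequenced from DA neurons of mouse embryos labelled C57/Bl6 (C57BL/6J in the methods) at E15.75. Every embryo carried Pitx3-Cre/+ and Rosa-lox-stop-lox-YFP, so that YFP marked cells in which Cre had acted, and the genotypes had 0, 1 or 2 floxed Dot1l alleles, named Dot1l(+/+), Dot1l(fl/+) and Dot1l(fl/fl). The gene encodes the methyltransferase of lysine 79 on histone H3, and Cre removes an exon from its floxed allele. Cre came from the Pitx3 locus, which becomes active in post-mitotic DA precursors. Labelled cells were sorted by FACS from dissociated midbrain, and each library was made from RNA pooled over embryos. There were 3 libraries of Dot1l(+/+), 3 of Dot1l(fl/+) and 2 of Dot1l(fl/fl), while the library Dot1l(fl/fl) 3 was not analysed here. By the methods, a litter gave a matched set of the 3 genotypes, but no label links a replicate number to a litter. The p-values measure the spread between these pools.

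Library totals were between 13616922 and 43674673 counts, and motor genes took between 1.07% and 1.17% of them. Levels are given as CPM, counts relative to the library total after scaling with TMM factors. A count of 3, the limit that a count of 0 allows, stood for 0.0694 to 0.216 CPM. Dot1l was at 105.2, 84.6 and 94.6 CPM in Dot1l(+/+), at 75.5, 65.6 and 76.2 CPM in Dot1l(fl/+), and at 64.9 and 99.1 CPM in Dot1l(fl/fl). The library labelled Dot1l(fl/fl) 2 was thus within the Dot1l(+/+) range, and directions drawn from it carry that doubt. The counts cover the whole gene, and the deleted exon alone was not measured. Dot1l(+/+) 2 also stood apart, with counts for 17607 genes, the fewest of the 8 libraries, and with transport kinesin levels close to those of Dot1l(fl/fl). The latter trait was seen in the genes described here, so leaving Dot1l(+/+) 2 out widens their difference by that choice. The main results below are also given with either library left out. Of 12 markers of DA neurons, all were tested, and their summed level was between 5009 and 7173 CPM in every library. Among markers of other cells, 8 of radial glia and progenitors summed to 217 to 258 CPM, 3 of glutamatergic neurons to 167 to 212, 4 of microglia to 53.1 to 76.02, 4 of blood to 10.4 to 28.4, 4 of endothelium to 3.80 to 13.8, 4 of oligodendrocyte precursors to 4.22 to 12.6 and 3 of serotonergic neurons to 0 to 2.70 CPM.

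Sequences around the transcription start are shown first because most mitotic kinesins have the core letters of a cell cycle element there, and few transport motors have them. The cell cycle homology region (CHR) is a short promoter element known from genes that are expressed in dividing cells and silenced after cell cycle exit. Its core, TTTGAA, was searched on both strands of RefSeq windows on GRCm38.p6, which run from 250 bases before to 50 bases after each start and exist for 49 of the 64 motor genes. It was found in 9 of 11 mitotic kinesins (81.8%), in 1 of 11 transport kinesins (9.09%), in 1 of 15 dynein and dynactin genes (6.67%), in 2 of 9 kinesins of the cilium or with other roles and in 0 of 3 light chains, against 5466 of 27025 genes (20.2%) overall. The mitotic kinesins whose windows lacked it were Kif18a and Kif2b, and the transport kinesin that had it was Kif1a, 44 bases before the start. In the mitotic kinesins Kif14 and Kif2c the only match lay 228 and 103 bases before the start. The CCAAT box, searched in the same way, was present in 7 of 11 mitotic kinesins (63.6%), in 3 of 11 transport kinesins (27.3%) and in 41.1% of all genes. A match describes these letters in this window and is not a measured binding site. The windows below are those of the mitotic kinesins Kif23 and Kif22, which had the highest level per length in Dot1l(+/+) among mitotic kinesins with a single window, and of the transport kinesins Kif5c and Kif3a, chosen in the same way. Capitals mark the CHR core on either strand, and Kif5c and Kif3a had none.
Kif23 (chr9:61946750-61947049, minus strand): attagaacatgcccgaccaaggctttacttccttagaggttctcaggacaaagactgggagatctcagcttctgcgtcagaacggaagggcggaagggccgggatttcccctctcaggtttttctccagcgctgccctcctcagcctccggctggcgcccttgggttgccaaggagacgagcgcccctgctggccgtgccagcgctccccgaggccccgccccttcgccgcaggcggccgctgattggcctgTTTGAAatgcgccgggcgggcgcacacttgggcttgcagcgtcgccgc
Kif22 (chr7:127042371-127042670, minus strand): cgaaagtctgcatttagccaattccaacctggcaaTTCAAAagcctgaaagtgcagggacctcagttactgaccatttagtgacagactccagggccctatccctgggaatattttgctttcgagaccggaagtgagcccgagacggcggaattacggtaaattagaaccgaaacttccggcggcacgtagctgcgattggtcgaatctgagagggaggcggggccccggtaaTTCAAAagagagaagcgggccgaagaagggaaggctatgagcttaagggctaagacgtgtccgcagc
Kif5c (chr2:49619036-49619335, plus strand): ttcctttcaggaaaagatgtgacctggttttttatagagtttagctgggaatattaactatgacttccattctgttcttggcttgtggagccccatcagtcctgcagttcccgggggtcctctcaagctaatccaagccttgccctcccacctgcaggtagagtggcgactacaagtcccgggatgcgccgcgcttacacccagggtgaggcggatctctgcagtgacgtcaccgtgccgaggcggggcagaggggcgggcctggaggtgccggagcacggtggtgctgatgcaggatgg
Kif3a (chr11:53567119-53567418, plus strand): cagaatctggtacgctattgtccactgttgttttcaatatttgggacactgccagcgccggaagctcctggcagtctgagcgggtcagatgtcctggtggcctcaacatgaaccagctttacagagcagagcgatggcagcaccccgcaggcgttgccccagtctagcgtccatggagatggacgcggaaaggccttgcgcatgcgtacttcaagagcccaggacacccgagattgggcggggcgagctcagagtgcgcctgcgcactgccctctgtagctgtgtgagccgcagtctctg
In Kif23 the core began 2 bases after the annotated start, and a CCAAT box lay on the opposite strand 7 bases before the start. In Kif22 it occurred in 2 places on the opposite strand, 215 and 17 bases before the start.

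Levels in Dot1l(+/+) also differed by class. Compared per length, as CPM per kilobase of exon (RPKM), 28 of the 64 genes were at 10 RPKM or more, 12 between 1 and 10, and 24 under 1. All 12 mitotic kinesins were under 1 RPKM, whereas all 6 dynactin subunits and 10 of 15 transport kinesins were at 10 RPKM or more. The median was 28.3 RPKM over transport kinesins, 45.6 RPKM over dynactin, 39.5 RPKM over the dynein 1 core and 0.168 RPKM over mitotic kinesins.

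**Figure D1:**
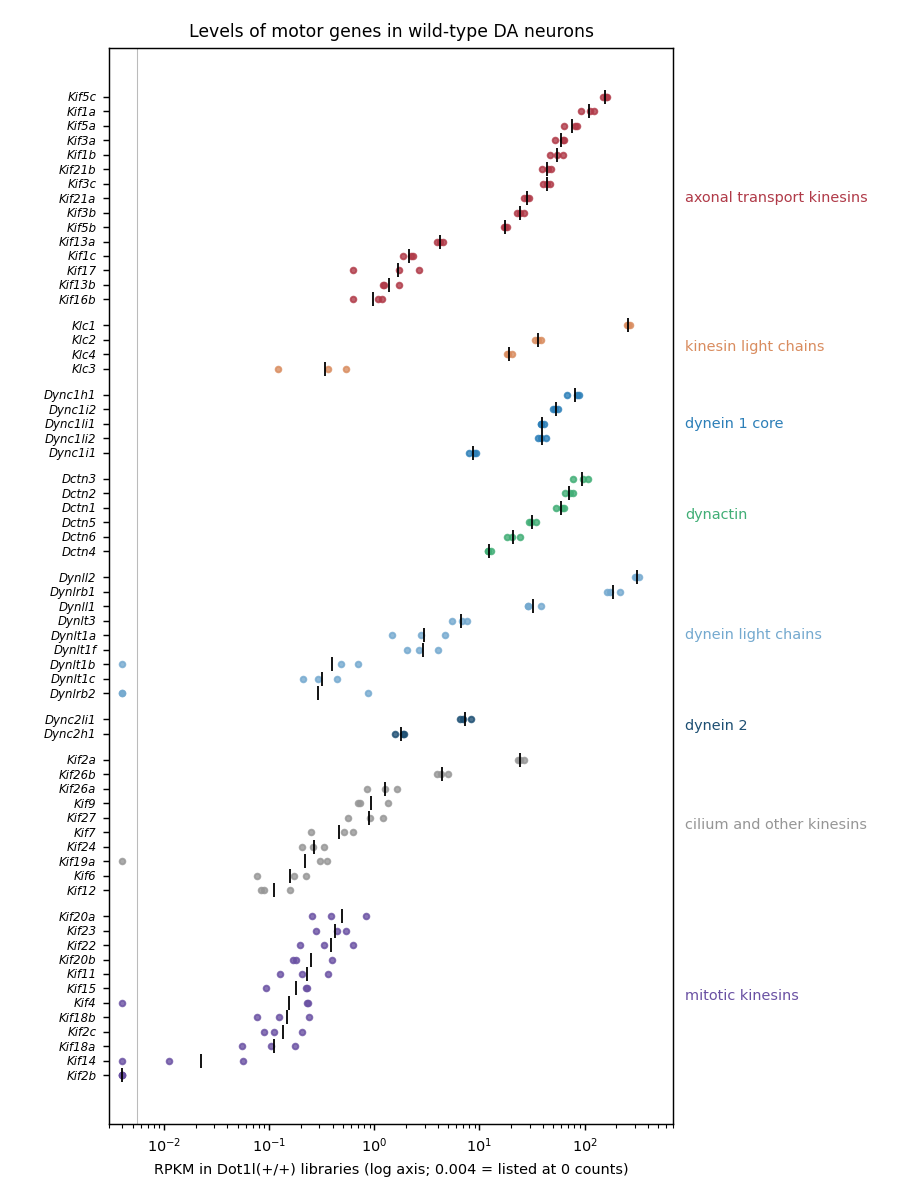
Levels of 63 motor genes in the 3 Dot1l(+/+) libraries, without the pseudogene, on a log axis of RPKM. Points are libraries, black ticks are means, and points left of the grey line are listed at 0 counts. Means of mitotic kinesins lie at 0.491 RPKM or lower, with single libraries up to 0.833 RPKM (Kif20a), and Dynll2 has the highest mean at 313 RPKM.

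Among the axonal transport kinesins the neuronal kinesin-1 heavy chain Kif5c led. It was at 160, 149 and 163 RPKM in the Dot1l(+/+) libraries, a mean of 157 ± 7.45 (SD, n = 3). Kif1a, the kinesin-3 motor of synaptic vesicle precursors, followed at 110 ± 15.3 RPKM, and Kif5a, another neuronal heavy chain, at 76.5 ± 11.5 RPKM. The ubiquitous heavy chain Kif5b was much lower, at 17.6 ± 0.628 RPKM. Kif5c thus exceeded Kif5a by a ratio of 2.08 ± 0.242 and Kif5b by 8.93 ± 0.181. Over the 8 libraries the latter ratio was between 7.90 and 9.40, and it was lowest in Dot1l(fl/fl), at 8.43 and 7.90.

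The kinesin-2 pair Kif3a and Kif3b, which work together in axonal and ciliary transport, was at 59.2 ± 5.77 and 24.4 ± 1.83 RPKM. Kif3c, the neuronal partner of Kif3a, was at 43.6 ± 2.94 RPKM. Kif1b, a kinesin-3 with a mitochondrial and a vesicle isoform, was at 54.3 ± 7.68 RPKM. The ratio of Kif1a to Kif1b was among the steadiest, at 2.02 ± 0.0455 in Dot1l(+/+) and between 1.96 and 2.15 in every library. The levels of Kif3a and Kif1b overlapped between libraries, as did those of Kif21b (43.9 ± 4.42 RPKM), a kinesin-4 of axons and dendrites, and Kif3c. Within each Dot1l(+/+) library, however, Kif3a was above Kif1b, though in Dot1l(+/+) 3 they were practically level (61.97 and 61.80 RPKM). With the longest transcript in place of all exons as the length, this order turned, with Kif1b at 93.4 and Kif3a at 67.1 RPKM. Kif1a was then at 124.6 RPKM, nearer to Kif1b than by exon length. Kif21a, the relative of Kif21b, was at 28.3 ± 1.58 RPKM. Kif13a and Kif13b, endosomal kinesin-3 motors, were at 4.21 ± 0.264 and 1.39 ± 0.279 RPKM, and the dendritic kinesin-2 Kif17 was at 1.67 ± 1.01 RPKM.

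Cargo binding by kinesin-1 runs through its light chains, of which Klc1 dominated. It was at 258, 271 and 254 RPKM, a mean of 261 ± 8.63 (SD, n = 3), and exceeded Klc2 (36.1 ± 2.63 RPKM) by a ratio of 7.27 ± 0.730. With the longest transcript in place of all exons as the length, Klc1 ranked first of the 64 genes at 424.6 RPKM and Dynll2 second at 346.3 RPKM. Their order therefore depends on the length used, and so do the other orders and the ratios between genes given per exon length.

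Of dynein 1, the motor of retrograde axonal transport, the heavy chain Dync1h1 was at 80.4 ± 11.3 RPKM. The intermediate chain Dync1i2 was at 52.9 ± 2.79 RPKM and exceeded its neuronal paralog Dync1i1 (8.72 ± 0.701 RPKM) by a ratio of 6.11 ± 0.793. The light intermediate chains Dync1li1 and Dync1li2, which bind cargo adaptors, were at 39.5 ± 1.25 and 39.2 ± 3.38 RPKM and were not told apart by their spread. Dync2h1, the heavy chain of the dynein 2 motor of cilia, was at 1.78 ± 0.182 RPKM.

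The light chains of dynein were uneven. Dynll2, an LC8 hub protein that also serves partners outside the motor, was at 329, 310 and 301 RPKM, and its paralog Dynll1 at 32.0 ± 5.35 RPKM, a ratio of 9.96 ± 1.67. The roadblock light chain Dynlrb1 was at 184 ± 28.3 RPKM and Dynlt3, a Tctex-type light chain, at 6.66 ± 1.06 RPKM. In dynactin, which activates dynein, Dctn3 of the shoulder was at 109, 95.9 and 77.5 RPKM, the p50 subunit Dctn2 at 71.6 ± 5.79 RPKM, the microtubule-binding p150 subunit Dctn1 at 59.4 ± 4.73 RPKM, and Dctn4 of the pointed end at 12.3 ± 0.445 RPKM. Dctn3, Dync1h1, Kif5a and Dctn2 were neighbours in this order, and none of them differed from the next by more than the larger SD of the pair. Within each Dot1l(+/+) library, however, Dync1h1 was above Kif5a. With the longest transcript as the length, Dctn2 was at 134 and Dctn3 at 100.7 RPKM, ranks 6 and 8. Dync1h1 was then at 87.8 and Kif5a at 84.9 RPKM, ranks 12 and 13.

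Dynlt1-ps1 was listed at 307 ± 21.9 RPKM, second in the order, but its 342 bases are annotated as a pseudogene of Dynlt1, a light chain gene with several near-identical copies. How reads shared between these copies were counted was not given in the sources used here. The pseudogene held between 76.3% and 86.5% of the counts of the 5 genes in every library. Its level and those of Dynlt1a, Dynlt1b, Dynlt1c and Dynlt1f are uncertain for this reason, and the sum over the family was 117 to 149 CPM in Dot1l(+/+), 122 to 164 CPM in Dot1l(fl/+) and 154 to 156 CPM in Dot1l(fl/fl).

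The mitotic kinesins were weakly expressed. Together they had between 216 and 664 counts in a library, or 14.2 to 18.9 CPM in Dot1l(+/+), 13.7 to 20.2 CPM in Dot1l(fl/+) and 13.5 to 15.6 CPM in Dot1l(fl/fl). The groups overlapped. The highest per length was Kif20a, which acts in cytokinesis, at 0.491 ± 0.303 RPKM. Its exons share 1271 bases with Cdc23 on the opposite strand, a gene at 141 to 160 CPM, and those of the chromosome-arm motor Kif4 share 832 bases with Pdzd11 at 28.1 to 38.1 CPM. The strand setting of the counting was not given, so reads of these pairs may not be separated. The same limit holds outside the mitotic kinesins for Kif3c, which shares 3205 exon bases with 1110002L01Rik and Gm48512 on the opposite strand. It also holds for Kif2a, which shares 1229 with Dimt1. Kif23, the motor of the central spindle, was at 0.418 ± 0.127 RPKM, the chromokinesin Kif22 at 0.386 ± 0.220 RPKM, and the spindle motor Kif11 at 0.231 ± 0.118 RPKM. Markers of cycling cells summed to 54.4 to 65.4 CPM in Dot1l(+/+), 55.3 to 65.6 CPM in Dot1l(fl/+) and 55.5 to 62.6 CPM in Dot1l(fl/fl). Pcna alone gave 15.5 to 29.1 CPM of this sum. Gene by gene, 12 of the 15 markers were lower in Dot1l(fl/fl) than in Dot1l(+/+), where the median difference was −0.67 on the log2 scale, and 1 of them had a p under 0.05 before adjustment in edgeR. The median over these markers of log2 CPM minus the Dot1l(+/+) mean was 0.03, −0.15 and −0.14 in the Dot1l(+/+) libraries. It was −0.77 in Dot1l(fl/fl) 1 and −0.14 in Dot1l(fl/fl) 2, so the lower markers rest on a single library. Their part in the values of the mitotic kinesins was not tested.

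Loss of Dot1l was then examined in Dot1l(fl/fl) against Dot1l(+/+). No motor gene passed the adjusted threshold in edgeR or in DESeq2, and the smallest adjusted p in edgeR was 0.269. No gene of all 17988 passed in edgeR (0% called), while DESeq2 called 186 of 7157 genes (2.6%), none of them among the 32 motor genes to which it gave an adjusted p. Dync2li1 was not one of those 32. At a nominal p under 0.05, that is before adjustment, 8 of 63 motor genes stood out (12.7%), 4 lower and 4 higher, beside 9.27% of all genes, 5.03% lower and 4.24% higher. The 4 lower ones were all transport kinesins (4 of 15), and among the 4 higher ones were 3 of the 22 dynein and dynactin genes. The median log2 fold change was −0.03 over the 63 genes and −0.003 over all genes tested. The 63 fold changes ran from −2.07 to 1.07. These ends were Dynlt1b and Kif12, which had at most 16 counts in a library and standard errors of 2.655 and 1.867. Libraries did not overlap for 5 motor genes that were higher (7.94%) and 6 that were lower (9.52%), beside 12.1% and 11.6% of all genes.

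**Figure D2:**
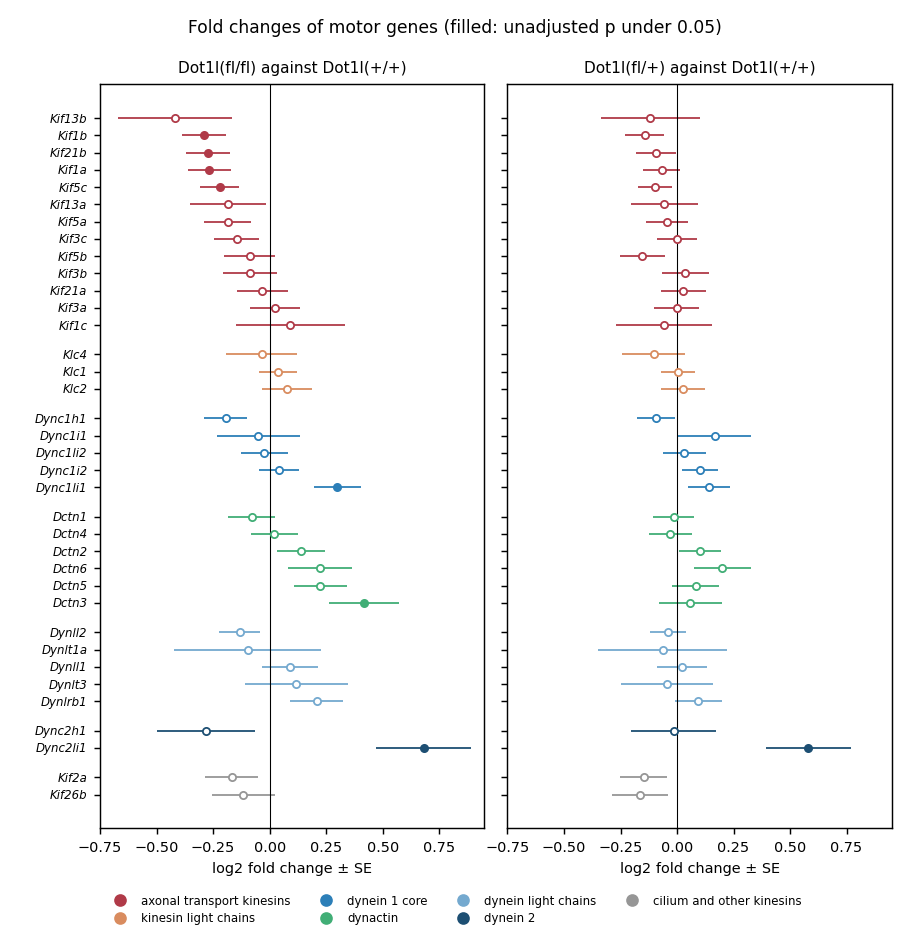
Log2 fold change with its standard error from edgeR for the 36 motor genes with a mean of at least 10 CPM over all libraries, Dot1l(fl/fl) against Dot1l(+/+) on the left and Dot1l(fl/+) against Dot1l(+/+) on the right. Filled points have a nominal p under 0.05, and none passed after adjustment. Kif1b, Kif21b, Kif1a and Kif5c lie on the lower side and Dync1li1, Dctn3 and Dync2li1 on the higher side.

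The 8 genes lie apart in the genome (GRCm38, whole genes). The kinesins are Kif1a (ENSMUSG00000014602, chr1:93015464-93101951, minus strand), Kif21b (ENSMUSG00000041642, chr1:136131389-136177998, plus strand), Kif5c (ENSMUSG00000026764, chr2:49619298-49774778, plus strand) and Kif1b (ENSMUSG00000063077, chr4:149176319-149307693, minus strand). The dynein and dynactin genes are Dctn3 (ENSMUSG00000028447, chr4:41714798-41723170, minus strand), Dync1li1 (ENSMUSG00000032435, chr9:114688790-114724302, plus strand) and Dync2li1 (ENSMUSG00000024253, chr17:84626496-84655588, plus strand). The pseudogene Dynlt1-ps1 (ENSMUSG00000082691) is at chr6:135349408-135349749 on the minus strand. Kif1a and Kif21b, and likewise Kif1b and Dctn3, share a chromosome but lie far from each other.

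Among the transport kinesins, Kif1a was at 1055, 866 and 1146 CPM in Dot1l(+/+), at 992, 979 and 955 CPM in Dot1l(fl/+), and at 844 and 855 CPM in Dot1l(fl/fl). Both Dot1l(fl/fl) libraries were below all Dot1l(+/+) libraries, of which Dot1l(+/+) 2 came close. The log2 fold change was −0.27 ± 0.09 (SE), with an unadjusted p of 0.00906 and an adjusted p of 0.331 in edgeR. Kif1b was at 962, 818 and 1088 CPM in Dot1l(+/+) and at 740 and 824 CPM in Dot1l(fl/fl), so that the groups overlapped, and its log2 fold change was −0.29 ± 0.10 (edgeR unadjusted p = 0.00672, adjusted p = 0.311).

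Kif21b was at 551, 474 and 578 CPM in Dot1l(+/+) and at 411 and 474 CPM in Dot1l(fl/fl), where the nearest libraries of both genotypes were practically level. Its log2 fold change was −0.27 ± 0.10 (edgeR unadjusted p = 0.0112, adjusted p = 0.349). With Dot1l(+/+) 2 left out it was −0.35, with Dot1l(fl/fl) 2 left out −0.38 and with Dot1l(fl/fl) 1 left out −0.17. Kif5c was at 1142, 1063 and 1165 CPM in Dot1l(+/+) and at 930 and 999 CPM in Dot1l(fl/fl), without overlap, and its log2 fold change was −0.22 ± 0.09 (edgeR unadjusted p = 0.0170, adjusted p = 0.398). It stayed between −0.27 and −0.17 with a library left out. Kif5a had a log2 fold change of −0.18 ± 0.10, Kif5b of −0.09 ± 0.11, Kif3c of −0.15 ± 0.10 and Kif3a of 0.03 ± 0.11. It was −0.09 ± 0.12 for Kif3b, −0.03 ± 0.11 for Kif21a, −0.42 ± 0.25 for Kif13b and 0.09 ± 0.40 for Kif17. Kif13a was at 31.9, 34.0 and 36.2 CPM against 31.6 and 28.2 CPM, with a log2 fold change of −0.18 ± 0.17. None of these genes had a nominal p under 0.05.

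Over all 15 transport kinesins, 11 fold changes were below 0, and the median was −0.15 on the log2 scale. The libraries did not overlap for 4 of the 15, all lower (Kif1a, Kif5c, Kif21b and Kif13a), beside 11.6% of all genes that were lower without overlap. For Kif21b and Kif13a the margin was far below the spread. A score per library, the median over the transport kinesins of log2 CPM minus the Dot1l(+/+) mean, was 0.05, −0.17 and 0.11 in Dot1l(+/+), −0.03, 0.02 and −0.08 in Dot1l(fl/+), and −0.18 and −0.17 in Dot1l(fl/fl). Dot1l(+/+) 2 thus lay with Dot1l(fl/fl). Without Dot1l(+/+) 2, Kif1a and Kif1b passed in edgeR with log2 fold changes of −0.37 (adjusted p = 0.0353) and −0.39 (adjusted p = 0.0482). In that fit 75 of all genes passed (0.423%), against 0 with every library. Dot1l(+/+) 2 was the lowest Dot1l(+/+) library for both kinesins, so leaving it out had to widen these differences. Without Dot1l(+/+) 3 the fold changes of Kif1a and Kif1b were −0.18 and −0.19. Over 17 alternatives their adjusted p ran from 0.0353 to 0.870 and from 0.0482 to 0.884. The fold changes of Kif1a and Kif1b were −0.28 and −0.37 upon leaving out the library labelled Dot1l(fl/fl) 2, with adjusted p of 0.287 and 0.138 in edgeR.

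**Figure D3:**
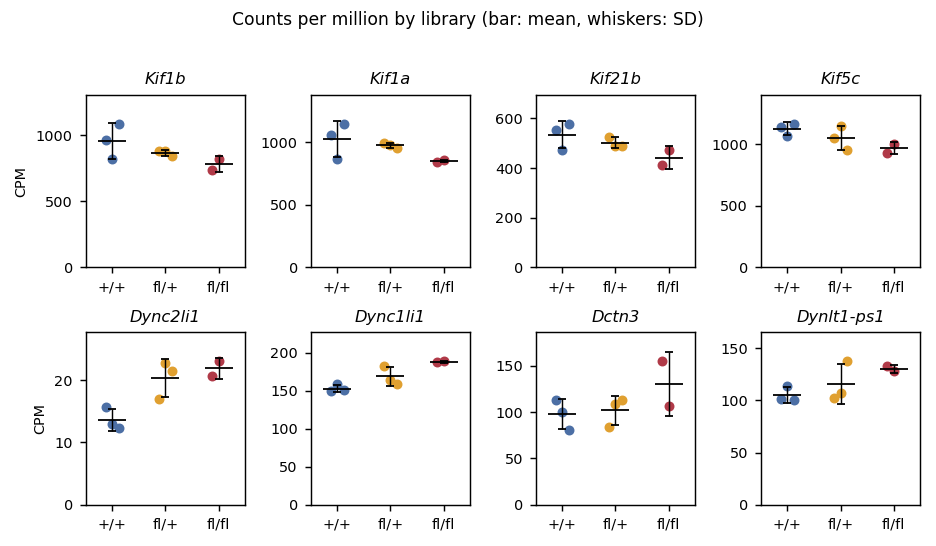
CPM in each library of the 8 motor genes with a nominal p under 0.05 for Dot1l(fl/fl) against Dot1l(+/+), by number of floxed alleles. Points are libraries, bars are means and whiskers are SD over 3, 3 and 2 libraries. In the upper row Dot1l(+/+) 2 is the lowest Dot1l(+/+) point of each kinesin, and in the lower row Dctn3 is high in Dot1l(fl/fl) 1 alone.

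The genes with lower and higher values also differed in exon length. Kif1a, Kif1b, Kif21b and Kif5c have 9330, 17608, 12184 and 7142 bases of exon, and Dync1li1, Dync2li1 and Dctn3, which were higher, have 3871, 1869 and 1042. With exon length and GC content fitted as an offset in each library, the log2 fold changes were −0.13 for Kif1a, −0.15 for Kif1b, −0.09 for Kif21b and −0.19 for Kif5c. Of these, Kif5c alone kept a nominal p under 0.05 (0.0342). The number of motor genes at that level went from 8 to 5, beside 6.72% of all genes with the offset, and the transport kinesin median from −0.15 to −0.09. Of the 5, Dynll2 was not among the 8, and its log2 fold change was −0.19 with the offset (edgeR unadjusted p = 0.0394). Markers of DA neurons also differed in this comparison, none past the adjusted threshold in edgeR (smallest adjusted p = 0.114). Their summed level was 6275 to 7173 CPM in Dot1l(+/+), 6202 to 6657 CPM in Dot1l(fl/+) and 5009 to 5999 CPM in Dot1l(fl/fl), and 7 of 12 were lower at a nominal p under 0.05, while the GABAergic markers summed to 201 to 217, 191 to 223 and 232 to 260 CPM. Of these, the vesicular transporter Slc32a1 had a log2 fold change of 0.37, Gad2 of 0.10 and Gad1 of −0.36. Of 4 blood markers, Hba-a1 (1.08) and Hbb-bs (0.80) were higher at a nominal p under 0.05, and 1 of the 4 was below 0. The 4 summed to 28.4 CPM in Dot1l(fl/fl) 2, the library with Dot1l within the Dot1l(+/+) range, and to 14.3 CPM in Dot1l(fl/fl) 1. They summed to 11.2 to 14.3 CPM in Dot1l(+/+) and to 10.4 to 17.0 CPM in Dot1l(fl/+). In bulk libraries, fewer DA neurons in the sorted cells and less RNA per cell cannot be told apart, and the part of the marker shifts in the motor genes was not tested.

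**Figure D4:**
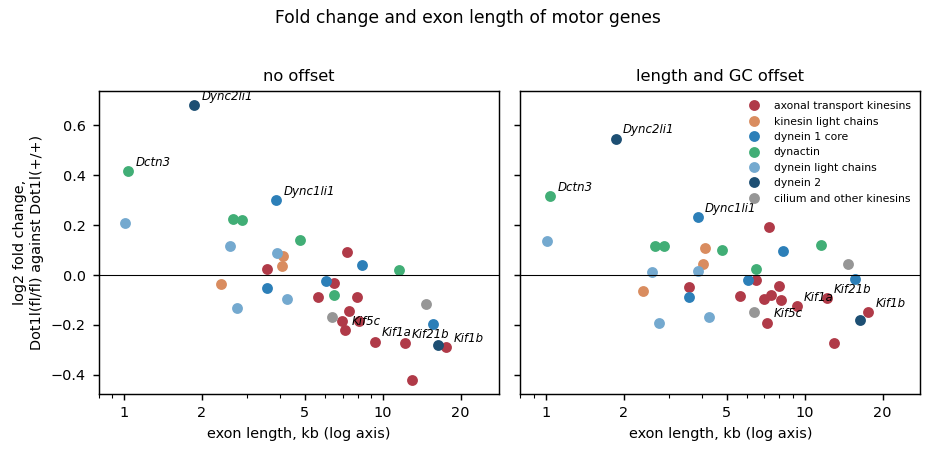
Log2 fold change in Dot1l(fl/fl) against Dot1l(+/+) over exon length in kilobases, on a log axis, for the 36 motor genes with a mean of at least 10 CPM, without an offset on the left and with the length and GC offset on the right. Kif1a, Kif1b, Kif21b and Kif5c lie below 0 on the left and nearer 0 on the right, where Kif1a is at −0.13 and Dync2li1 at 0.55.

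On the retrograde side, Dync1li1 was at 150, 158 and 150 CPM in Dot1l(+/+), at 183, 164 and 159 CPM in Dot1l(fl/+), and at 187 and 189 CPM in Dot1l(fl/fl). Neither genotype with floxed alleles overlapped Dot1l(+/+), though Dot1l(fl/+) 3 at 159.1 CPM and Dot1l(+/+) 2 at 158.5 CPM were practically level. The log2 fold change was 0.30 ± 0.10 (edgeR unadjusted p = 0.00881, adjusted p = 0.331), and it stayed between 0.28 and 0.33 when each library was left out in turn and was 0.23 with the offset. With the replicate block added to the offset it was 0.18 (edgeR unadjusted p = 0.131). Dync2li1, the light intermediate chain of dynein 2, was at 15.67, 13.0 and 12.3 CPM in Dot1l(+/+) and at 20.7 and 23.0 CPM in Dot1l(fl/fl), without overlap. It had the largest fold change of the 8, 0.68 ± 0.21 on the log2 scale (edgeR unadjusted p = 0.00339, adjusted p = 0.269), 0.55 with the offset, and 0.60 to 0.79 with a library left out. Its partner, the heavy chain Dync2h1, was at 30.4, 25.7 and 31.3 CPM in Dot1l(+/+) and at 17.4 and 30.7 CPM in Dot1l(fl/fl), which overlapped.

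Dctn3 was at 113, 99.9 and 80.7 CPM in Dot1l(+/+) and at 155 and 106 CPM in Dot1l(fl/fl). The groups overlapped, and a single library was high. The log2 fold change of 0.42 ± 0.15 (edgeR unadjusted p = 0.0130, adjusted p = 0.361) was 0.12 without Dot1l(fl/fl) 1 and 0.66 without Dot1l(fl/fl) 2. The libraries did not overlap for the pointed-end subunits Dctn5 and Dctn6, for Dctn6 by a margin far below the spread. They were at 102 and 94.5 CPM against at most 91.6 CPM for Dctn5, and at 69.4 and 70.3 CPM against at most 69.4 CPM for Dctn6, and had log2 fold changes of 0.22 ± 0.12 and 0.22 ± 0.14 and unadjusted p of 0.0669 and 0.132 in edgeR. In all, 5 of 6 dynactin fold changes were above 0, with a median of 0.18 on the log2 scale. The exception was Dctn1, at −0.08 ± 0.10, and Dctn2 and Dctn4 were at 0.14 ± 0.10 and 0.02 ± 0.10.

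Of the other dynein 1 subunits none had a nominal p under 0.05. The log2 fold change was −0.20 ± 0.10 for Dync1h1 (edgeR unadjusted p = 0.0513), 0.04 ± 0.09 for Dync1i2, −0.05 ± 0.18 for Dync1i1 and −0.02 ± 0.10 for Dync1li2. With the offset the value for Dync1h1, whose exons span 15658 bases, was −0.02. Among light chains it was −0.13 ± 0.09 for Dynll2, 0.09 ± 0.12 for Dynll1, 0.21 ± 0.12 for Dynlrb1 and 0.12 ± 0.23 for Dynlt3. Over the 22 dynein and dynactin genes the median was 0.03, with 13 above 0 and 9 below. For 4 of them the libraries did not overlap, all higher (18.2%), beside 12.1% of all genes. Their score per library was 0.01, 0.01 and −0.04 in Dot1l(+/+), 0.02, 0.06 and 0.04 in Dot1l(fl/+), and 0.09 and 0.08 in Dot1l(fl/fl). The pseudogene Dynlt1-ps1 was at 101, 114 and 100.2 CPM against 133 and 128 CPM, a log2 fold change of 0.32 ± 0.13 (edgeR unadjusted p = 0.0193, adjusted p = 0.416). With the offset it was 0.18 (edgeR unadjusted p = 0.120), and with a library left out 0.28 to 0.38.

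The kinesin light chains Klc1 and Klc2 differed by less than their error, with log2 fold changes of 0.04 ± 0.08 for Klc1 and 0.08 ± 0.11 for Klc2. Of 11 mitotic kinesins tested, 0 had a nominal p under 0.05, and their median was 0.06 with a spread from −2.03 to 0.88 on the log2 scale. The lowest, Kif15, which assists spindle bipolarity, was at 2.47, 2.50 and 1.02 CPM in Dot1l(+/+), at 0.37, 1.02 and 0.77 CPM in Dot1l(fl/+), and at 0.33 and 0.65 CPM in Dot1l(fl/fl). These values rest on 44 to 88 counts per Dot1l(+/+) library and on 6 and 9 counts in Dot1l(fl/fl). Its log2 fold change came to −2.03 ± 1.02 (edgeR unadjusted p = 0.0583, adjusted p = 0.557). The group median turned to −0.50 once Dot1l(fl/fl) 2 was left out and to −0.02 without Dot1l(+/+) 1, so that its sign rests on single libraries. Of the kinesins of the cilium or with other roles, Kif24, a kinesin that restrains cilium formation, was at 1.66, 2.65 and 2.08 CPM against 1.15 and 0.86 CPM, without overlap (log2 fold change −1.07 ± 0.66, edgeR unadjusted p = 0.116). The microtubule-depolymerising Kif2a had a fold change of −0.17 ± 0.12, and the atypical kinesins Kif26a and Kif26b had fold changes of −0.50 ± 0.33 and −0.12 ± 0.14. The Hedgehog pathway kinesin Kif7 had one of −0.53 ± 0.68.

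**Figure D5:**
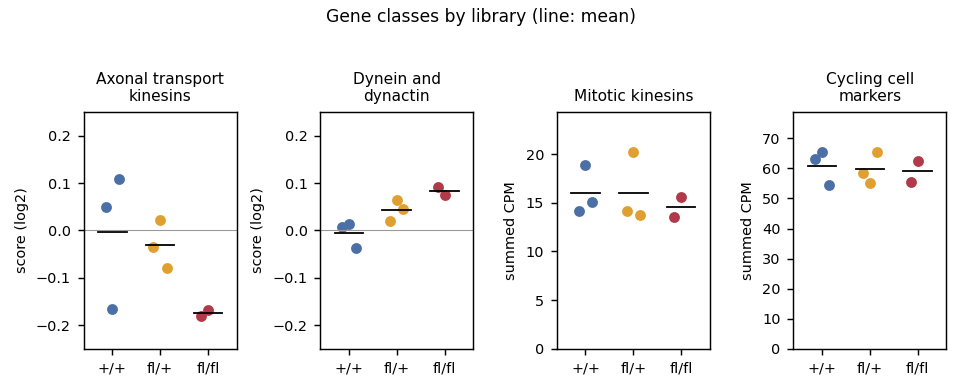
Gene classes in each library by number of floxed alleles, with lines at the means. The 2 left panels give the score, the median over genes of log2 CPM minus the Dot1l(+/+) mean, and the 2 right panels give summed CPM. The transport kinesin score of Dot1l(+/+) 2 (−0.17) lies with those of Dot1l(fl/fl), and the mitotic kinesin and cycling marker sums overlap between genotypes.

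A single floxed allele was examined in the same way. In Dot1l(fl/+) against Dot1l(+/+) no motor gene passed after adjustment in edgeR or DESeq2, and the smallest adjusted p in edgeR was 0.940. At a nominal p under 0.05 there was 1 of 63 motor genes (1.59%), beside 5.02% of all genes (2.16% higher and 2.86% lower, and 4.43% in both directions with the offset). It was Dync2li1, at 17.0, 22.7 and 21.4 CPM in Dot1l(fl/+), above all 3 Dot1l(+/+) libraries. Its log2 fold change was 0.58 ± 0.19 (edgeR unadjusted p = 0.00503, adjusted p = 0.940). The libraries did not overlap for 3 motor genes, all higher (Dync2li1, Dync1li1 and Dync1i2), beside 5.56% of all genes, and 0 were lower, beside 5.97%. For Dync1li1 the margin was the narrow one given above. Since Dot1l(fl/+) and Dot1l(fl/fl) were set against the same Dot1l(+/+) libraries, the likeness of Dync2li1 in both comparisons is not independent. The transport kinesin median was −0.06 on the log2 scale and turned to 0.02 with the offset, so that it had no stable direction. Kif1a had a fold change of −0.07 ± 0.08 and Kif1b of −0.14 ± 0.09.

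Between Dot1l(fl/fl) and Dot1l(fl/+), 0 motor genes passed after adjustment in edgeR and in DESeq2, which called 0.00422% of all genes, and 2 of 63 had a nominal p under 0.05 in edgeR (3.17%), beside 4.02% of all genes (1.86% higher and 2.16% lower, and 4.05% in both directions with the offset). Kif1a was lower in Dot1l(fl/fl) by a log2 fold change of −0.20 ± 0.09 (edgeR unadjusted p = 0.0446, adjusted p = 0.998), with no overlap between 844 to 855 CPM and 955 to 992 CPM. Dctn3 was higher, by 0.36 ± 0.16 (edgeR unadjusted p = 0.0303, adjusted p = 0.998), and by 0.05 without Dot1l(fl/fl) 1. With the offset Kif1a was at −0.16 (edgeR unadjusted p = 0.0598) and Dctn3 at 0.30 (edgeR unadjusted p = 0.0417), and with the replicate block neither had a p under 0.05 before adjustment (0.103 and 0.0657 in edgeR). Without overlap there were 8 lower motor genes (12.7%), beside 9.57% of all genes, and 4 higher (6.35%), beside 10.2%. The lower ones included 5 transport kinesins, Kif1a, Kif1b, Kif21b, Kif3c and Kif5a, and the weakly expressed ciliary kinesins Kif9 (5.30 ± 0.394 against 3.43 ± 1.76 CPM) and Kif24 (2.37 ± 0.831 against 1.01 ± 0.201 CPM). Kif4 was among the higher ones, at 0.616 ± 0.272 against 1.29 ± 0.101 CPM, with the overlap with Pdzd11 described above. The transport kinesin median was −0.13 on the log2 scale.

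With the number of floxed alleles as a linear term over all 8 libraries, 10 of 63 motor genes had a nominal p under 0.05 in edgeR (15.9%), beside 10.1% of all genes, 4.48% higher and 5.61% lower. Of the 10, 4 were higher and 6 lower with more floxed alleles. In edgeR 0 passed after adjustment. Dync2li1 had the smallest p, with a slope per allele of 0.36 ± 0.11 on the log2 scale (edgeR adjusted p = 0.217), and Dync1li1 one of 0.15 ± 0.05 (edgeR adjusted p = 0.254). Among the 31 motor genes with an adjusted p in DESeq2, which did not include Dync2li1, it called Dync1li1 (adjusted p = 0.0344), where it called 272 of 6697 genes (4.06%). Lower with each allele were Kif1b by −0.14 ± 0.05, Kif1a by −0.13 ± 0.04, Kif21b by −0.13 ± 0.05 and Kif5c by −0.11 ± 0.04, with adjusted p between 0.238 and 0.317 in edgeR. The others of the 6 were the dynein 1 heavy chain Dync1h1, by −0.097 ± 0.045 (edgeR unadjusted p = 0.0393), and the weakly expressed mitotic kinesin Kif15, by −1.065 ± 0.454 (edgeR unadjusted p = 0.0269). Without Dot1l(+/+) 2, Kif1a, Kif1b, Dync1h1 and Kif21b passed, with slopes of −0.19, −0.20, −0.15 and −0.18 and adjusted p of 0.0167, 0.0225, 0.042 and 0.0468 in edgeR. In that fit 268 of all genes passed (1.51%), against 0 with every library. With Dot1l(+/+) 1 or Dot1l(+/+) 3 left out instead, 0 motor genes passed in the trend. The trend uses the same libraries as the pairwise comparisons and adds no independent evidence.

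Motors act through adaptors and regulators, and 46 such genes were tested alongside. In Dot1l(fl/fl) against Dot1l(+/+), 5 had a nominal p under 0.05 in edgeR, 3 higher and 2 lower (9.27% of all genes in both directions), and 0 passed after adjustment (smallest adjusted p = 0.269). Higher were Fez1, a kinesin-1 adaptor, by 0.24 ± 0.09 on the log2 scale, the lysosomal GTPase Arl8b by 0.24 ± 0.11 and the late endosomal GTPase Rab7 by 0.23 ± 0.10. Fez1 was at 321, 342 and 326 CPM in Dot1l(+/+) and at 412 and 369 CPM in Dot1l(fl/fl), without overlap. Lower were Rab11fip3, which links recycling endosomes to dynein, by −0.39 ± 0.12 and the microtubule-associated protein tau, Mapt, by −0.17 ± 0.07. Rab11fip3 was at 108, 114.6 and 129 CPM in Dot1l(+/+) and at 94.9 and 84.0 CPM in Dot1l(fl/fl), without overlap. With a library left out, the value for Mapt was −0.07 without Dot1l(fl/fl) 2 and −0.27 without Dot1l(fl/fl) 1. That for Rab7 was 0.13 without Dot1l(fl/fl) 1 and 0.12 with the offset. Those for Fez1 and Rab11fip3 stayed between 0.16 and 0.32 and between −0.48 and −0.30, the value for Fez1 being lowest without Dot1l(fl/fl) 1. Madd, which links Rab3 vesicles to Kif1a and Kif1b, was at −0.20 ± 0.11 with an unadjusted p of 0.0691 in edgeR. The median over the 46 genes was −0.06 on the log2 scale, with 18 above 0 and 28 below.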

How the data were processed

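The authors deposited whole-number counts per Ensembl gene, not normalised, for each library, made per the labels from a strand-preserving kit (NEBNext Ultra Directional). The submitters' processing notes name bcl2fastq 2.17, Trimmomatic 0.30, DESeq2 1.10.1 and GRCm38.p4; the aligner and the counter are not given in the sources used here. The deposited comparison tables, which hold fold changes and p-values, were not used, except that the Dot1l(fl/fl) table gave the gene symbols. Coordinates and exon lengths came from GENCODE M21, in which all 64 motor genes were found.

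A single edgeR 4.0.16 model (R 4.3.3, quasi-likelihood, TMM factors, filterByExpr) covered the 3 genotypes, with p-values adjusted by Benjamini-Hochberg over 17988 genes with a threshold of 0.05. A prior count of 2 was used on the log scale. Groups came from the sample titles. Alternatives were RLE and upper quartile factors, removing the filter, requiring a mean count of 50, DESeq2 1.42.0, fitting the compared genotypes alone, blocking on the replicate number, a length and GC offset (splines, 4 degrees of freedom), block and offset together, leaving out each library, and the longest transcript as the length. The limits from counts cover counting error alone, since no molecular identifiers are described.

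Same-numbered libraries did not deviate together, with correlations from −0.031 to 0.045 over 7 pairs, against −0.051 to 0.045 over the other 14 pairs, so the numbers were not taken as pairs. Deviations were taken from the mean of each genotype, so those of the 2 Dot1l(fl/fl) libraries mirror each other. The pairs are therefore not independent, and these values cannot exclude a pairing by litter. Replicates differed beyond counting noise (chi-square per degree of freedom of 17.8 to 43.33). Members, classes and lists were chosen with earlier results of these data known. Genes named were a fixed set of motors, members with the smallest nominal (unadjusted) p, the 10 highest in level, those without overlap that differed over 1.5 times, and the 3 adaptors or regulators with the smallest p in each direction. Kif2b, Kif12, Dctn5, Dctn6 and the Dynlt1 copies were named outside this rule, after their values were seen.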

Additional observations from a re-analysis of the deposited data

How the results depend on the processing

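All counts of motor genes past the adjusted threshold were 0 in edgeR under other size factors, other filters, the 2 genotypes alone, the replicate block and the offset, and the exceptions were DESeq2, with 1 gene in the allele trend, and leaving out Dot1l(+/+) 2. With a library left out they were 0 to 2 in Dot1l(fl/fl) against Dot1l(+/+), 0 to 4 in the trend and 0 in both other comparisons, and the counts at a nominal p under 0.05 were 4 to 14 for Dot1l(fl/fl) against Dot1l(+/+), 1 to 7 in Dot1l(fl/+) against Dot1l(+/+), 1 to 6 between Dot1l(fl/fl) and Dot1l(fl/+) and 5 to 14 in the trend. Against Dot1l(+/+), the 14 and 7 came without Dot1l(+/+) 2 and the 4 without Dot1l(+/+) 3, beside 13 upon leaving out the library labelled Dot1l(fl/fl) 2, and there were 5 without Dot1l(fl/fl) 1. The trend had 14 without either Dot1l(+/+) 2 or Dot1l(fl/fl) 2, 6 without Dot1l(+/+) 3 and 5 without Dot1l(fl/fl) 1, and the 6 between Dot1l(fl/fl) and Dot1l(fl/+) came without Dot1l(fl/fl) 2. Calls over all genes moved in the same fits. In Dot1l(fl/fl) set against Dot1l(+/+) the share of all genes with a nominal p under 0.05 was 13.5% without Dot1l(+/+) 2, 11.1% without Dot1l(fl/fl) 2, 6.88% without Dot1l(fl/fl) 1 and 5.85% without Dot1l(+/+) 3, beside 22.2%, 20.6%, 7.94% and 6.56% of the motor genes. In the trend it was 13.9%, 12.2%, 7.07% and 6.19%, beside 22.2%, 22.2%, 7.94% and 9.84%. It was 8.43% beside 11.1% in Dot1l(fl/+) set against Dot1l(+/+) without Dot1l(+/+) 2, and 5.71% beside 9.52% between Dot1l(fl/fl) and Dot1l(fl/+) without Dot1l(fl/fl) 2. For these shifts the cause was not tested.

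With the length and GC offset, 5, 1 and 6 motor genes had a nominal p under 0.05, beside 6.72%, 4.05% and 7.09% of all genes. These were for Dot1l(fl/fl) set against Dot1l(+/+), for Dot1l(fl/fl) set against Dot1l(fl/+) and for the trend. The 5 included Dynll2, which had no nominal p under 0.05 without the offset. The replicate block left 0 for Dot1l(fl/fl) set against Dot1l(fl/+) and moved no other count of motor genes past 1.5 times, and the block with the offset left 3, 1 and 4, beside 6.75%, 4.65% and 7.07% of all genes. The cause was not tested.

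The dynein and dynactin median in Dot1l(fl/fl) against Dot1l(+/+) was 0.065 on the log2 scale with the 2 genotypes alone, 0.059 with the replicate block, 0 with the block and the offset, and 0.013 to 0.186 with a library left out. In Dot1l(fl/+) against Dot1l(+/+) it was 0.052 with the 2 genotypes alone and 0.014 to 0.074 with a library left out, and between Dot1l(fl/fl) and Dot1l(fl/+) it was −0.008 with the offset, −0.038 with the block and the offset, and −0.023 to 0.061 with a library left out. The transport kinesin median was −0.214 to −0.099, −0.151 to 0.022 and −0.168 to −0.105 in these comparisons with a library left out. The mitotic kinesin median was −0.502 to 0.164, −0.344 to 0.199 and −0.266 to 0.005, and 0.387 in Dot1l(fl/+) against Dot1l(+/+) with a mean count of at least 50, where fewer genes were tested.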
